A study of Macaca mulatta with 19 samples.

Results

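The genes described here are 10 that make, desaturate or esterify fatty acids or control that synthesis: FASN, ACACA, ACLY, SCD, ELOVL5, ELOVL6, FADS1, FADS2, SREBF1 and GPAM. They were chosen by symbol, and all 10 were found among the 32386 genes of the count table. Fatty acid synthesis starts in the cytosol, where ACLY (ATP citrate lyase) cuts citrate to acetyl-CoA, ACACA (acetyl-CoA carboxylase) carboxylates it to malonyl-CoA, and FASN (fatty acid synthase) builds palmitate. SCD (stearoyl-CoA desaturase) then makes monounsaturated acids, ELOVL5 and ELOVL6 lengthen chains, and FADS1 and FADS2 (delta-5 and delta-6 desaturases) turn dietary essential fatty acids into long polyunsaturated ones. SREBF1 encodes the transcription factor known for driving many of these genes, and GPAM (mitochondrial glycerol-3-phosphate acyltransferase) attaches the first acyl chain to glycerol phosphate on the way to phospholipids and triglycerides. Granulosa cells, the steroid-making cells that surround the oocyte in the follicle, take up and store lipid as they luteinize after the ovulatory stimulus.

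RNA came from luteinized granulosa cells of the naturally selected periovulatory follicle of 19 female rhesus macaques (Macaca mulatta), with 1 library per animal. Treatment began near the first menses and lasted about 3.5 years: each animal had an implant, of cholesterol (C, the control) or of testosterone (T, raised 4 to 5 fold over C), and a diet, chow or Western-style (WSD). There were 4 animals in Chow+C, 4 in Chow+T, 5 in WSD+C and 6 in WSD+T, out of 10 animals enrolled per treatment, and the series asks how these treatments bear on granulosa cells and on oocyte quality. All groups shared the controlled ovulation cycle, and the oocyte of the same aspirate was classed as MI (metaphase I, 8 libraries), MII (metaphase II, 4), degenerating (6) or GV (germinal vesicle, 1). Oocyte class and treatment were not balanced, since the MI oocytes came from 3 animals of Chow+C, 3 of WSD+C and 2 of WSD+T, and the MII oocytes from 1 of Chow+C, 2 of Chow+T and 1 of WSD+T. The degenerating oocytes came from 1 animal of Chow+T, 2 of WSD+C and 3 of WSD+T, and the GV oocyte from Chow+T. A library is written as its group and replicate number, so that WSD+C 4 is replicate 4 of WSD+C.

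Libraries held 28832132 to 56385679 reads in genes, and levels are given as TMM-scaled CPM, the gene's reads relative to all reads in genes. Of 11 granulosa markers listed, 8 were found and 7 of these never fell under 1 CPM, with STAR between 206 and 5901 CPM and LHCGR at 0.388 CPM in its lowest library. No sort of the aspirate is named in the labels, and markers of other cells were present in varying amount. Across libraries the leukocyte score, the mean log2 CPM of the 11 leukocyte markers found of 12 listed, ran from -1.77 to 7.24 with a median of 1.24, and the markers' summed level ran from 6.23 to 2187 CPM. The score was 6.89 in WSD+C 4, 7.24 in WSD+T 6 and 4.07 in WSD+T 3, and all 3 came with a degenerating oocyte. WSD+C 4 also had the highest erythroid score (7.80), smooth muscle score (6.09) and oocyte score (3.60) and the lowest granulosa score (5.56, against a median of 9.25). The 6 adipocyte markers found summed to 3.64 to 48.8 CPM. Of these LPL ran from 0.748 to 46.6 CPM, highest in WSD+T 6, and PLIN1 from 1.12 to 3.59 CPM, while ADIPOQ was at 0 in 5 libraries and at most 1.19 CPM, and LEP was at 0 in 10 libraries. In Chow+C 2, 49.1% of reads fell in genes, against 55.9% or more elsewhere. In such bulk samples fewer cells of a type and less RNA per cell cannot be told apart.

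No member changed between treatment groups or between oocyte classes at an adjusted p under 0.05. In edgeR's quasi-likelihood test with Benjamini-Hochberg adjustment, 0 of 10 members were called in each of 8 treatment comparisons and 3 oocyte comparisons, beside 0% of the 15019 or 16036 genes tested. DESeq2 and limma-voom called 0 of 10 members as well. The ranges of every member overlapped in all 8 comparisons of 2 groups or classes, in which 0.0266% to 1.40% of all genes lay wholly above or wholly below. The biological coefficient of variation was 0.583 over all genes, and the lowest adjusted p of a member was 0.694 between pairs of treatment groups and 0.212 between oocyte classes.

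The enzymes that make palmitate were present in every library at levels that spanned 2.65-fold to 3.44-fold across the 18 libraries other than WSD+C 4. FASN (ENSMMUG00000012811) was at 505, 308, 784 and 298 CPM in Chow+C 1 to 4. In Chow+T 1 to 4 its level was 351, 228, 385 and 352 CPM. In WSD+C 1 to 5 it was 234, 374, 399.7, 289 and 286 CPM, and in WSD+T it had a lowest value of 268, a median of 382 and a highest value of 438 CPM. Chow+C 1 and Chow+C 3 were above every other library of the study, and Chow+C 2 and 4 lay within the range of the treated groups. The fitted log2 difference was -0.53 for T against C on chow (SE 0.29, unadjusted p = 0.0793, edgeR) and -0.57 for WSD against chow with C (SE 0.27, unadjusted p = 0.0506, edgeR, adjusted p = 0.83). Without Chow+C 3, the highest library, these were -0.18 and -0.21.

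ACACA (ENSMMUG00000009349) had means of 114 ± 50.6 CPM (SD, n = 4) in Chow+C, 107 ± 19.3 (n = 4) in Chow+T, 90.9 ± 27.2 (n = 5) in WSD+C and 109 ± 23.5 (n = 6) in WSD+T. Its lowest library was WSD+C 4 at 55.3 CPM and its highest Chow+C 3 at 177 CPM. ACLY (ENSMMUG00000018931) had means of 258 ± 116 CPM in Chow+C, 201 ± 76.9 in Chow+T, 223 ± 74.0 in WSD+C and 239 ± 38.8 in WSD+T with the same n. For both genes the SD within Chow+C was larger than any difference between group means.

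SCD (ENSMMUG00000010817), the desaturase that makes oleate and palmitoleate, varied little outside 1 library. Its level was 1806, 1350.2, 2153 and 1347 CPM in Chow+C 1 to 4 and 1824, 1253, 1951 and 2654 CPM in Chow+T 1 to 4. In WSD+C 1 to 5 it was 2071, 2204, 2490.0, 265 and 1629 CPM, and in WSD+T the lowest, median and highest values were 1512, 1957 and 2435 CPM. WSD+C 4 was at 14.0% of the median of the other 18 libraries, and these spanned 2.12-fold. The within-group SD of log2 CPM was 0.76 over all libraries and 0.34 without WSD+C 4, where 30.6% of genes tested varied less. For T against C the fitted log2 difference was 0.20 on chow and 0.20 on WSD, and the difference between these effects was -0.00041 (95% CI -1.21 to 1.21).

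**Figure D1:**
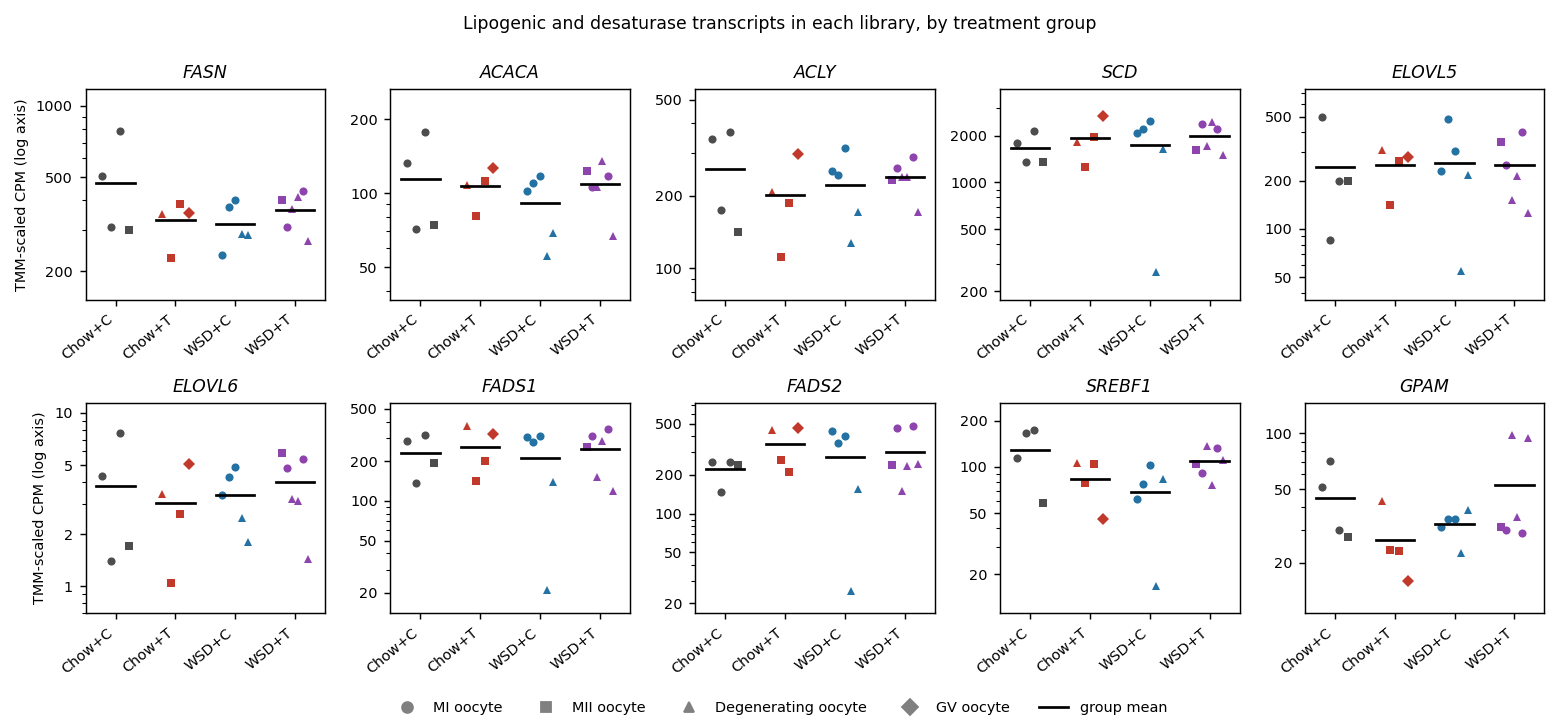
TMM-scaled CPM of each member in each of the 19 libraries (log axis, its own range per gene), by treatment group, with the group mean as a bar and the oocyte class as the symbol. The groups overlap for every gene, and WSD+C 4 is the lowest library for SCD (265 CPM), FADS1 (21.0 CPM), FADS2 (25.1 CPM), SREBF1 (16.7 CPM) and ELOVL5 (54.5 CPM).

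The elongases varied widely between animals of the same group. ELOVL5 (ENSMMUG00000006422), which extends polyunsaturated acids, ran from 85.8 to 495 CPM within Chow+C alone and from 54.5 to 487 CPM within WSD+C, and its means lay between 245 and 259 CPM in all 4 groups. Its SD was 74.6 CPM in Chow+T, the least variable group, so the group means differed by less than the spread in any group. ELOVL6 (ENSMMUG00000047534), which turns palmitate into stearate, was at 1.05 to 7.61 CPM, from 39 to 295 reads per library. Group means of ELOVL6 were 3.76 ± 2.88 CPM in Chow+C, 3.04 ± 1.69 in Chow+T, 3.37 ± 1.27 in WSD+C and 3.98 ± 1.68 in WSD+T. Chow+C 3 had the highest level and Chow+T 2 the lowest.

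The polyunsaturated fatty acid desaturases were, with WSD+C 4 included, the most variable members, with within-group SDs of log2 CPM of 1.01 for FADS1 and 1.02 for FADS2 against a median of 0.56 over all genes tested. FADS1 (ENSMMUG00000013798) was at 288, 136, 315 and 193 CPM in Chow+C 1 to 4 and at 371, 142, 201 and 322 CPM in Chow+T 1 to 4. In WSD+C 1 to 5 it was at 308, 279, 314, 21.0 and 139 CPM, and in WSD+T the lowest, median and highest were 119.5, 272 and 350.0 CPM. Leaving out WSD+C 4, which was at 7.40% of the median of the others, brought the SD to 0.60.

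FADS2 (ENSMMUG00000000327) was at 250.0, 148, 252 and 241 CPM in Chow+C 1 to 4, and at 445, 264, 211 and 468 CPM in Chow+T 1 to 4. In WSD+C 1 to 5 it was at 437, 358, 402, 25.1 and 156 CPM, and in WSD+T the lowest, median and highest were 151, 240.3 and 485 CPM. Each of the 3 treated groups had libraries above 400 CPM and libraries inside the Chow+C range. For T against C on chow the fitted log2 difference in FADS2 was 0.64 (95% CI -0.55 to 1.83, unadjusted p = 0.273, edgeR). The number of FADS2 reads per FADS1 read stayed between 0.800 and 2.02 in all 19 libraries. In the RefSeq annotation FADS1 and FADS2 overlap each other, and in libraries without strand information reads of the overlap cannot be told apart.

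SREBF1 (ENSMMUG00000023375), which encodes the lipogenic transcription factor, was highest in Chow+C 3 and Chow+C 2. Its level was 115, 168, 174 and 58.3 CPM in Chow+C 1 to 4 and 106, 79.0, 104 and 45.6 CPM in Chow+T 1 to 4. In WSD+C 1 to 5 it was 62.3, 78.0, 103, 16.7 and 83.4 CPM, and in WSD+T the lowest, median and highest were 76.3, 108 and 136 CPM. Group means were 129 ± 54.0 CPM in Chow+C, 83.6 ± 28.1 in Chow+T, 68.7 ± 32.5 in WSD+C and 109 ± 23.3 in WSD+T. The ranges of all 4 groups overlapped, and Chow+C 4 at 58.3 CPM was below the median of each other group.

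For SREBF1, WSD against chow with C gave a log2 difference of -0.92 (SE 0.39, unadjusted p = 0.0316, adjusted p = 0.83, edgeR). It was the single member of 10 lower at an unadjusted p under 0.05 in that comparison, where 2.58% of all genes were. On WSD the difference for T against C was 0.67 (SE 0.36), and on chow it was -0.64 (SE 0.42). The difference between these effects, the T by diet interaction, was 1.32 (95% CI 0.15 to 2.48, unadjusted p = 0.0290, adjusted p = 0.933, edgeR). With oocyte class as a term and the GV library left out, the interaction was 0.75 (unadjusted p = 0.188, edgeR), and T against C on chow turned from -0.64 to 0.14. Without WSD+C 4 the SREBF1 interaction was 1.08, and the difference for WSD against chow with C was -0.68. With both WSD+C 4 and WSD+T 6 left out, T against C on WSD was 0.43.

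GPAM (ENSMMUG00000007526), the acyltransferase, had a different set of high libraries. It was at 51.3, 70.9, 29.9 and 27.6 CPM in Chow+C 1 to 4 and at 43.2, 23.5, 23.1 and 15.9 CPM in Chow+T 1 to 4. In WSD+C 1 to 5 it was at 31.2, 34.6, 34.5, 22.6 and 38.7 CPM. In WSD+T 3 and WSD+T 6 it was at 97.5 and 94.0 CPM, the highest of the study, and the other 4 WSD+T libraries lay between 28.9 and 35.2 CPM. Those highest 2 libraries had leukocyte scores of 4.07 and 7.24 and a degenerating oocyte. Over all libraries the slope of GPAM on that score was 0.07 log2 units per unit (SE 0.07, adjusted p = 0.506, edgeR), and its difference between degenerating and MI oocytes was 0.57 (unadjusted p = 0.104, edgeR). WSD+C 4, with a leukocyte score of 6.89, was at 22.6 CPM, the lowest value of the 11 WSD libraries.

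For GPAM, WSD against chow with T gave a log2 difference of 1.01 (SE 0.42, unadjusted p = 0.0274, adjusted p = 0.862, edgeR), and no other of the 10 members was higher at an unadjusted p under 0.05, where 2.20% of all genes were. It was 0.75 without WSD+T 3, 0.77 without WSD+T 6 and 0.43 with oocyte class as a term. The T by diet interaction of GPAM was 1.49 (95% CI 0.24 to 2.74, unadjusted p = 0.0219, adjusted p = 0.933, edgeR). GPAM and SREBF1 were the 2 members of 10 with a positive interaction at an unadjusted p under 0.05, beside 2.62% of all genes. The median interaction over the 10 members was 0.41, with 3 of 10 negative, against a median of 0.01 over all genes tested, of which 49.0% were negative. Without Chow+C 3 the member median was 0.02, with 5 of 10 negative. FASN had an interaction of 0.73 (unadjusted p = 0.0711, edgeR), which was 0.37 without Chow+C 3.

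**Figure D2:**
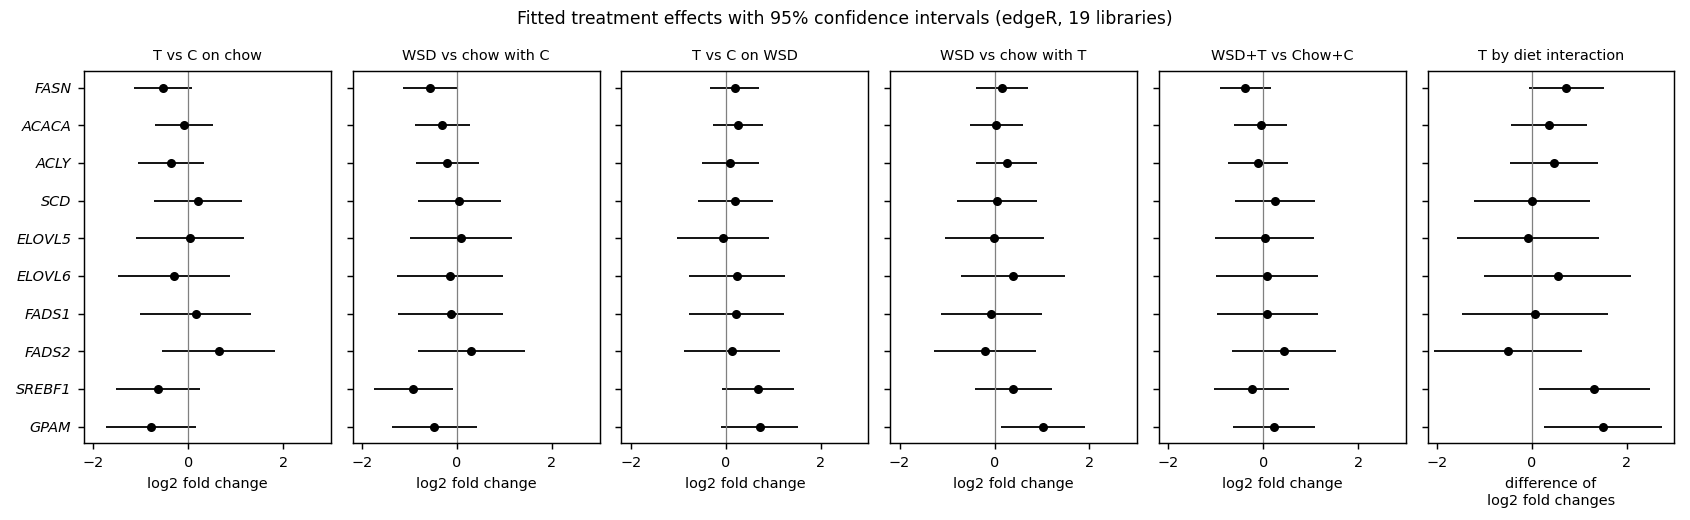
Fitted log2 differences of the 10 members with 95% confidence intervals (lines) for 5 pairs of treatment groups and for the T by diet interaction (edgeR, 19 libraries). Intervals away from 0 are those of SREBF1 for WSD against chow with C, GPAM for WSD against chow with T, and both genes for the interaction, none of which passed adjustment over 15019 genes.

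In the remaining comparisons no member reached an unadjusted p under 0.05 in edgeR. Such genes made up 7.18% of all genes for T against C on chow, 3.86% for T against C on WSD and 6.75% for WSD+T against Chow+C. They were 6.31% for the main effect of T and 6.87% for the main effect of WSD. Over the members the median log2 difference for T against C on chow was -0.20 with 6 of 10 negative, and the all-gene median was -0.02 with 51.8% of genes negative. For WSD against chow with C it was -0.18 with 7 of 10 negative, and the all-gene median was 0.02 with 47.4% negative. These comparisons share the Chow+C libraries, and without Chow+C 3 their member medians were 0.08 (5 of 10 negative) and 0.01 (4 of 10 negative). Without the GV library and with oocyte class as a term, they were 0.17 (3 of 10 negative) and -0.15 (6 of 10 negative). On WSD, T against C gave a member median of 0.21 with 9 of 10 positive, and ELOVL5 at -0.06 was the exception; the all-gene median was -0.00022 with 50.0% negative. That count rested on WSD+C 4, without which 5 of 10 members were positive with a median of 0.06, and ACLY, FADS1, FADS2, SCD and ELOVL5 were negative.

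With an MII oocyte all 10 members had lower fitted levels than with an MI oocyte, and the differences did not pass adjustment. The median log2 difference over the members was -0.70, against 0.03 over all 16036 genes, of which 46.9% were below 0. ACLY stood at a lowest value of 174, a median of 275 and a highest value of 369.8 CPM in 8 MI libraries. In the 4 MII libraries, Chow+C 4, Chow+T 2, Chow+T 3 and WSD+T 1, ACLY was at 142, 111, 186 and 233 CPM. Of the 4, 2 lay below all MI libraries and 2 within their range. The fitted difference in ACLY was -0.79 (SE 0.29, unadjusted p = 0.0146, adjusted p = 1, edgeR), and it was the single member lower at an unadjusted p under 0.05, beside 1.27% of all genes. Other members ran from -0.35 for FASN to -0.94 for FADS1. All 10 stayed negative in each of 25 other settings. Among these were a fit without the treatment term (median -0.49) and one with a leukocyte covariate (median -0.42). The settings share most of their libraries, and the members varied together across animals, so the 10 signs are not independent. The granulosa score had a median of 8.73 with MII and 9.31 with MI oocytes, and the leukocyte score had medians of 1.85 and 0.33. The part of the granulosa score in these differences was not tested. No Chow+T animal had an MI oocyte and no WSD+C animal an MII oocyte.

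With a degenerating oocyte 9 of 10 members had lower fitted levels than with an MI oocyte, GPAM being the other, and again none passed adjustment. The member median was -0.61, the all-gene median 0.05, and 45.8% of all genes were below 0. FADS2 ran from 148 to 485 CPM with a median of 380.0 CPM with MI oocytes, and from 25.1 to 445 CPM with a median of 194 CPM with degenerating ones. FADS1 had medians of 311 CPM with MI and 146 CPM with degenerating oocytes, and ACLY had medians of 275 and 189.7 CPM. The classes overlapped for each gene, and Chow+T 1, whose oocyte was degenerating, held 371 CPM of FADS1 and 445 CPM of FADS2, above the median of the MI libraries.

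The fitted log2 difference between degenerating and MI was -1.21 for FADS2 (SE 0.44, unadjusted p = 0.0149, adjusted p = 0.212, edgeR). It was -1.03 for FADS1 (SE 0.47, unadjusted p = 0.0436, edgeR) and -0.57 for ACLY (SE 0.24, unadjusted p = 0.0299, edgeR). These 3 of 10 members were lower at an unadjusted p under 0.05, beside 3.61% of all genes, while 11.8% of all genes were higher at that level. The leukocyte score had a median of 3.15 with degenerating oocytes and 0.33 with MI oocytes, and the highest 2 scores were in the degenerating class. The member median was -0.42 without WSD+C 4, -0.33 with both WSD+C 4 and WSD+T 6 left out, and -0.23 in the fit with a leukocyte covariate, with 9 of 10 members negative each time. For FADS1 the difference was -0.28 with that covariate. Here too the settings share most of their libraries, and the signs of the 10 members are not independent.

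**Figure D3:**
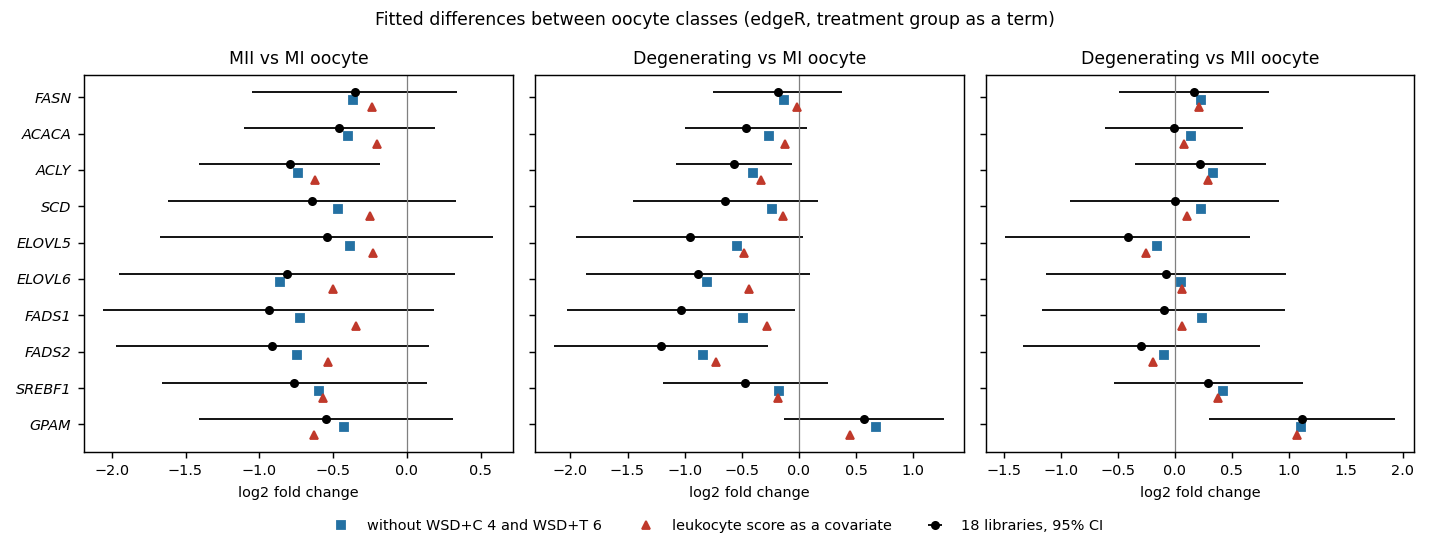
Fitted log2 differences of the 10 members between oocyte classes, with treatment group as a term. Black points and lines are the fit of 18 libraries with 95% confidence intervals, squares the fit that leaves out WSD+C 4 and WSD+T 6, and triangles the fit with a leukocyte covariate; in the panel of degenerating against MI, FADS1 is at -1.03, and at -0.28 with that covariate.

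Between degenerating and MII oocytes the members had a median difference of -0.0016 (6 of 10 negative, with 46.2% of all genes below 0), and 0.13 without WSD+C 4 (3 of 10 negative). GPAM was at 22.6 to 97.5 CPM with a median of 41.0 CPM in the 6 degenerating libraries. In the MII libraries Chow+C 4, Chow+T 2, Chow+T 3 and WSD+T 1 it was at 27.6, 23.5, 23.1 and 31.2 CPM. The classes overlapped, since WSD+C 4 of the degenerating class was below every MII library. The fitted difference in GPAM was 1.12 (SE 0.38, unadjusted p = 0.0104, adjusted p = 0.96, edgeR), and it was the single member higher at an unadjusted p under 0.05, beside 1.55% of all genes. It ranged from 0.99 to 1.24 over 25 other settings. The GV library, Chow+T 4, entered no test between oocyte classes; it held the highest SCD level of the study (2654 CPM) and the lowest GPAM level (15.9 CPM).

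The desaturases were lower where leukocyte markers were higher. In a fit of the 4 treatment groups that also held the leukocyte score, 11.9% of 16059 genes rose and 4.15% fell with the score at an adjusted p under 0.05, edgeR. Among the members FADS1 fell by 0.32 on the log2 scale per unit of score (SE 0.06, adjusted p = 0.00139, edgeR), FADS2 by 0.25 (adjusted p = 0.0306), SCD by 0.20 (adjusted p = 0.0304) and ACACA by 0.12 (adjusted p = 0.0407). The slopes of FASN (-0.05), ACLY (-0.11), ELOVL5 (-0.22), ELOVL6 (-0.17), SREBF1 (-0.11) and GPAM (0.07) did not pass. Without WSD+C 4 the calls of FADS2 (slope -0.14, adjusted p = 0.36), SCD (slope -0.09, adjusted p = 0.352) and ACACA (slope -0.12, adjusted p = 0.207) were lost in edgeR and that of FADS1 was not. With both WSD+C 4 and WSD+T 6 left out, 1.78% of genes rose, 0% fell and no member passed, and the FADS1 slope was -0.24 (adjusted p = 0.275, edgeR). The calls of FADS2 and SCD lay near the threshold otherwise too, with adjusted p up to 0.0523 for FADS2 without WSD+C 1, WSD+T 2 or WSD+T 5 and 0.0515 for SCD without WSD+C 2. ACACA lost its call also without Chow+C 3, Chow+T 2, WSD+C 2, WSD+C 5 or any WSD+T library other than replicates 2 and 3 (adjusted p up to 0.138, edgeR). ELOVL5 passed without Chow+C 1, Chow+C 2 or Chow+C 3, and ACLY without Chow+C 1 or Chow+C 2. The erythroid and smooth muscle scores were highest in WSD+C 4 and the macrophage score in WSD+T 6 (7.21), and their part in the slopes was not tested.

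**Figure D4:**
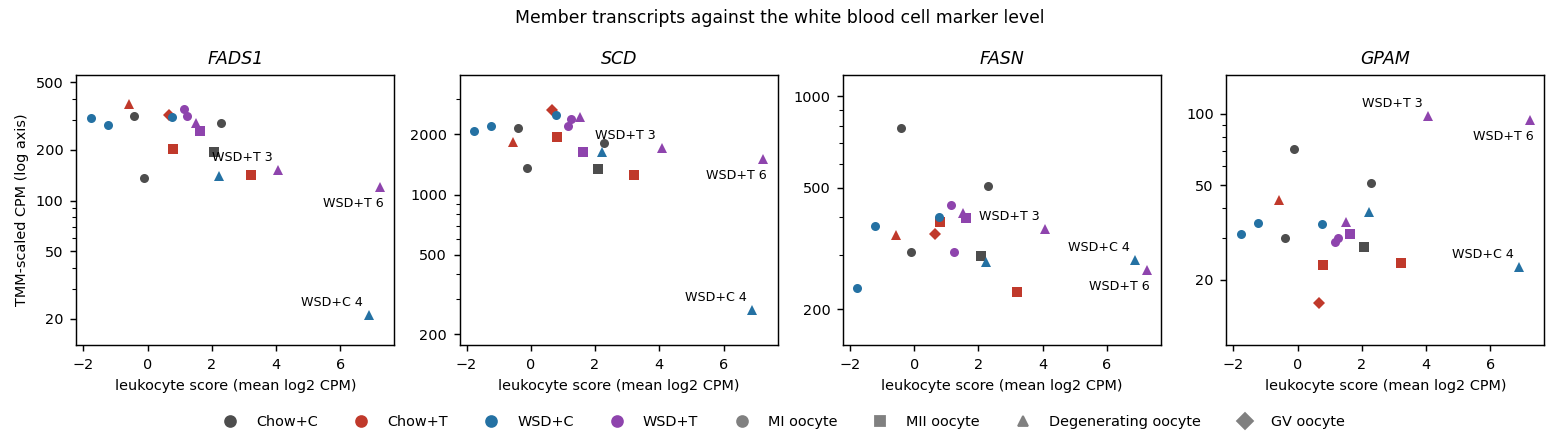
TMM-scaled CPM (log axis) of FADS1, SCD, FASN and GPAM in 19 libraries against the leukocyte score (mean log2 CPM of 11 markers), coloured by treatment group with oocyte class as the symbol. WSD+C 4 (score 6.89) is at 21.0 CPM of FADS1 and 265 CPM of SCD but at 289 CPM of FASN, and WSD+T 3 and WSD+T 6 hold the highest GPAM levels.

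WSD+C 4 split the members. Against the median of the other 18 libraries it held 7.40% of FADS1, 9.99% of FADS2, 14.0% of SCD, 16.1% of SREBF1 and 22.8% of ELOVL5. The same library held 80.5% of FASN, 72.7% of ELOVL6, 68.7% of GPAM, 53.4% of ACLY and 50.8% of ACACA. There were 0.916 SCD reads per FASN read in this library, against 2.75 to 8.86 in the others. The lowest of these others were the 4 Chow+C libraries (2.75 to 4.52) and WSD+T 1 (4.07). This ratio was not tested between groups or set against other pairs of genes. FASN was highest in Chow+C 1 and Chow+C 3, and oocyte class was not balanced between groups.

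**Figure D5:**
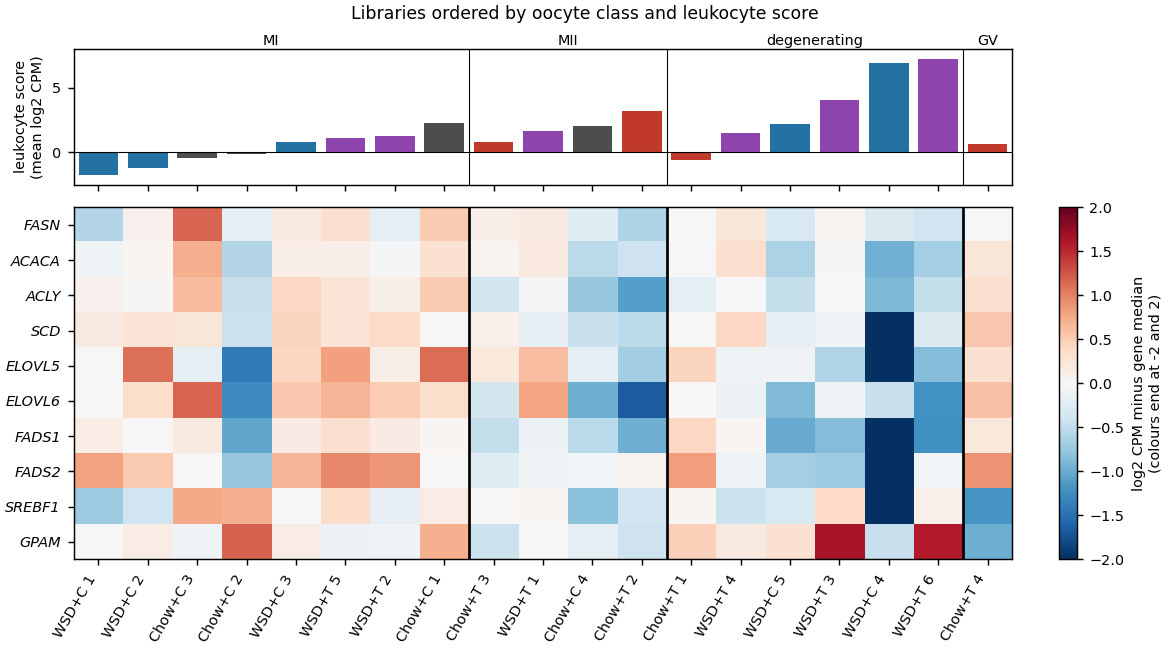
Log2 CPM of each member minus the gene's median over 19 libraries (colour, ending at -2 and 2), with libraries ordered by oocyte class and then by the leukocyte score shown as bars coloured by treatment group. SCD, ELOVL5, FADS1, FADS2 and SREBF1 are at the dark end in WSD+C 4, while GPAM is high in WSD+T 3 and WSD+T 6.

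Across animals the 8 enzymes other than GPAM varied together. Of their 28 pairs, 22 passed by Pearson's r and 26 by Spearman's rho at an adjusted p under 0.05 (permutation tests). The adjustment was over all 45 pairs of members. The median rho over the 28 was 0.68, and it was 0.58 without WSD+C 4 and WSD+T 6. Between members and the tested genes that are not members, rho had a median of 0.009 and a 95th percentile of 0.61. FASN and ACACA, consecutive steps of synthesis, had rho = 0.87 and r = 0.78 (adjusted permutation p = 0.00045 and 7e-04, n = 19). FADS1 and FADS2 had rho = 0.81 and r = 0.93 (adjusted permutation p = 0.00075 and 0.00011). The genes FADS1 and FADS2 overlap in RefSeq, and non-directional libraries cannot tell reads of the overlap apart. ACLY and ELOVL6 had rho = 0.84 and r = 0.87 (adjusted permutation p = 0.00045 and 0.00011). Without the 2 libraries farthest from the median of the first gene, r was 0.72, 0.83 and 0.88 for these 3 pairs. By rho, 0% of the genes tested were as alike to FASN as ACACA was, 0.187% were as alike to FADS1 as FADS2, and 0.280% were as alike to ACLY as ELOVL6. These 3 pairs had the highest rho of the 28, and other pairs that passed by rho had larger shares. For FASN and SCD, 5.7% of the genes tested were as alike to FASN and 12.7% as alike to SCD. FASN and FADS2, with rho = 0.12, were the pair of enzymes least alike, and 37.4% of the genes tested were as alike to FASN. The values of a library share its TMM factor and its cell makeup, whose part in these relations was not tested.

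GPAM did not follow the other enzymes, with rho from -0.27 with FADS2 to 0.09 with FASN and 0 of 8 pairs past the adjusted threshold by either measure. SREBF1 was tested against the other 9 members, and none passed at an adjusted p under 0.05 in permutation tests over these 9. GPAM was the closest to SREBF1, with rho = 0.56 and r = 0.54 (raw permutation p = 0.013 and 0.021, adjusted 0.12 and 0.087, n = 19). Adjusted over all 45 pairs of members instead, these 2 values were 0.025 and 0.042, and r was 0.44 without WSD+C 4 and Chow+T 4, the libraries farthest from the median of SREBF1. FASN had rho = 0.45 with SREBF1 and r = 0.45 (raw permutation p = 0.053 and 0.063). For SCD and SREBF1, r was 0.63 while rho was -0.05. That r was 0.02 without WSD+C 4 and Chow+T 4, and -0.17 without WSD+C 4 and WSD+T 6. WSD+C 4, the lowest library for both genes, was left out in both cases. Over all genes tested the median rho with SREBF1 was -0.01, and 0.48 marked the 95th percentile. For r with SREBF1 the median was 0.07 and the 95th percentile 0.60, above the r of GPAM over 19 libraries. Without WSD+C 4 and WSD+T 6, GPAM had rho = 0.46 and r = 0.60 with SREBF1. In those 17 libraries the 95th percentile of rho over all genes was 0.54.

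With treatment group means subtracted, r of SREBF1 with GPAM was 0.48 and with FASN 0.32. The genes other than members most alike to FASN by rho over 19 libraries were AKAP6 (0.86), NCDN (0.85) and FAM120C (0.84). For SCD they were NDUFS1 (0.90), C14orf1 (0.89) and PNKD (0.89), and for SREBF1 they included LRFN4 (0.88) and GART (0.86). NDUFS1 encodes a subunit of respiratory complex I, and GART an enzyme of purine synthesis.

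Other genes of the pathway, in 4 lists with 52 genes tested for treatment and 54 for oocyte class, gave 0 calls in any comparison by edgeR. They comprised further genes of synthesis, of elongation and desaturation, of lipid control and of glycerolipid acylation. PGD, a pentose phosphate enzyme that yields NADPH for synthesis, had the smallest p of a list gene for the main effect of WSD, a log2 difference of 0.40 (SE 0.11, unadjusted p = 0.00233, adjusted p = 0.701, edgeR). It was at 64.9 to 105 CPM in the 8 chow libraries and at 86.6 to 130.1 CPM in the 11 WSD libraries. INSIG1, which retains SREBP precursors in the endoplasmic reticulum, was at 87.8 CPM on average with MII and 140.0 CPM with MI oocytes. Its fitted log2 difference had a 95% CI of -1.71 to -0.30 (unadjusted p = 0.00837, adjusted p = 1, edgeR). GPAT4, an acyltransferase of the endoplasmic reticulum that acts at the same step as GPAM, was at 147 CPM on average with degenerating and 247 CPM with MI oocytes. The GPAT4 difference was -0.92 (SE 0.30, adjusted p = 0.161, edgeR), opposite in sign to that of GPAM (0.57, SE 0.33). In DESeq2, which called 962 genes for degenerating against MI, GPAT4 had an adjusted p of 0.0338.

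MLXIPL, which encodes the carbohydrate response factor ChREBP, had the smallest p of a list gene for T against C on chow, with a log2 difference of -4.84 (adjusted p = 0.658, edgeR). That value rested on Chow+C 2 at 111 CPM, and was -0.34 without it. Other list genes named for the smallest p in a comparison, none past the threshold, were AGPAT4, RXRB, PRKAA2, DGAT1, MCAT, PPARG, AGPAT5 and LPIN3. DGAT1, which completes triglyceride synthesis, had a T by diet interaction of 1.48 (SE 0.66, adjusted p = 0.933, edgeR), next to that of GPAM at 1.49. The highest DGAT1 level was that of WSD+T 3 (376 CPM), and Chow+C 2 followed (257 CPM). GPAM was highest of the study in the first of these (97.5 CPM) and highest of the chow libraries in the second (70.9 CPM). In WSD+T 6, with GPAM at 94.0 CPM, DGAT1 was at 149.9 CPM. The part of single libraries in the likeness of the 2 interactions was not tested. PPARG, a nuclear receptor of lipid storage, was at 112 CPM on average with MII and 81.9 CPM with MI oocytes (log2 difference 0.82, SE 0.32, adjusted p = 1, edgeR). For T against C on WSD, 43 of 52 list genes were positive with a median of 0.14, and 32 of 52 with a median of 0.04 without WSD+C 4. For MII against MI, 42 of 54 were negative with a median of -0.19, and for degenerating against MI 38 of 54 were negative with a median of -0.21, which was -0.09 without WSD+C 4 (32 of 53 negative). With the leukocyte score, FADS3, SLC25A1, ME1, IDH1, HSD17B12, MBTPS1 and MBTPS2 fell and NR1H3 and HACD4 rose at an adjusted p under 0.05 in edgeR, beside the 4.15% and 11.9% of all genes given above, and IDH1, a cytosolic source of NADPH, fell by 0.17 on the log2 scale per unit (adjusted p = 0.00492). Without WSD+C 4 and WSD+T 6 none of these 9 list genes passed (adjusted p from 0.469 to 1, edgeR), and the slope was -0.10 for IDH1, 0.16 for NR1H3 and 0.11 for HACD4.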

How the data were processed

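Raw read counts per gene were deposited by the authors in 1 table of 19 libraries. Per the labels' protocols the libraries were polyA-selected and non-directional (TruSeq v2), and per the submitters' processing notes Trimmomatic and STAR were used; tool versions, build and annotation are not given in these sources. The table names 32386 genes and 4 classes of reads not assigned to a gene. These classes, ambiguous, multimapping, without a feature and unmapped, were left out. Symbols came from the table or, for 1383 genes, from a reference table. RefSeq (T2T-MMU8v2.0) was used only for names and for neighbouring genes: SREBF1 overlaps 1 other gene there, ELOVL6 1 and ACACA 6, and reads shared with these or with paralogs (SCD5, ACACB, FADS3) are uncertain.

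Differences were tested with edgeR 4.0.16 in R 4.3.3 (filterByExpr with minimum count 10 and minimum total 15, TMM, robust quasi-likelihood test, two-sided, Benjamini-Hochberg over all genes, threshold 0.05). Treatment groups were fitted over 19 libraries (15019 genes) and oocyte classes, with a treatment term, over the 18 libraries other than the GV one (16036 genes). All 10 members passed both filters. Alternatives were DESeq2 1.42.0, limma-voom 3.58.1, other size factors, no filter, each library left out, both leukocyte-rich libraries left out, a leukocyte covariate, oocyte or treatment terms, and fits of only the compared groups. The test was tried on simulated data. Means are ± SD; intervals are 95%. Correlations used TMM log2 CPM (prior count 1) and 100000 permutations. The slope on the leukocyte score, its left-out libraries and the 45 member pairs were added after seeing the data.

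Depth was 28832132 to 56385679 gene counts per library, without molecular identifiers. Precision is limited also by differences between animals. No pair of libraries agreed within counting noise (171 pairs). The members, the gene lists and the naming rule were chosen with earlier results of these data known: all members are named, then in each comparison the 2 pathway genes of smallest p, and the 3 genes most alike to FASN, SCD and SREBF1, of which 1 is not reported here. OLAH and FADS6 were not found in the table. Replicate numbers were given in accession order and pair no libraries.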

Additional observations from a re-analysis of the deposited data

Results flagged for a closer look

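In groups of 4 to 8 libraries, 70 combinations of member and group or oocyte class were examined for a library far from the rest. Of these 2 stood out, fewer than the 3.5 that chance gives at about 1 in 20. Both were low values of the same library, Chow+C 2, in which 49.1% of reads fell in genes. Its FADS1 level of 136 CPM was the lowest of the MI libraries, of which the next was at 279 CPM. Its FADS2 level of 148 CPM was the lowest of Chow+C, where the next was at 241 CPM. WSD+C 4 was not among them, because on the CPM scale its values stayed below Dixon's critical value in groups of 5 and 6. The log2 scale, on which low values lie farther apart, was not examined.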

How the results depend on the processing

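Under the alternatives run, no member was called in any treatment or oocyte comparison, and the recomputed values of members stayed within 1 SE of the reported ones in 2826 cases and moved further in 54. The counts of called genes over the whole table differed from 0 in few settings. DESeq2 called 962 genes for degenerating against MI, 7 for degenerating against MII and 6 for MII against MI. It called 4 for T against C on chow, 4 for WSD against chow with T, 3 for WSD+T against Chow+C, 3 for the main effect of T, 5 for the main effect of WSD and 3 for the interaction. Without the treatment term 574 genes were called for degenerating against MI, and with the leukocyte covariate 8 for degenerating against MII. Leaving out 1 library gave 0 to 352 calls for degenerating against MI (352 without Chow+T 1) and 0 to 1 for the main effect of WSD (1 without Chow+C 4). The slope on the leukocyte score had 2575 calls, 758 to 3830 with 1 library left out (758 without WSD+C 4) and 267 without both WSD+C 4 and WSD+T 6; the cause was not tested. The 95% confidence intervals of members between pairs of treatment groups were 1.03 to 2.37 log2 units wide, which limits the size of difference that was detectable. No paired analysis was possible because the labels give no replicate numbers that groups share.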
